A study of Mus musculus with 18 samples.

Results

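Histone genes of the mouse were followed from normal prostate to the tumours of TRAMP mice (Transgenic Adenocarcinoma of the Mouse Prostate). They were taken as all probe sets of the array that name a single gene whose current or older symbol begins with Hist1h to Hist4h, H2af, H3f3 or H1f. This gave 35 probe sets of 24 genes, out of 34945 probe sets naming 1 gene and 18193 genes in all. Of the 35, 16 belong to 11 replication-dependent genes and 19 to 13 variant genes. The array's annotation uses the newer histone symbols, so 24 of the 35 were found only through the older name. No gene of histone H4 had a probe set naming it alone.

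The series held 9 normal prostates, taken from the ventral and dorsolateral lobes, and 9 TRAMP tumours, each hybridised to 1 Affymetrix array. TRAMP mice carry the early region of a simian virus, which encodes T antigen oncoproteins, under the probasin promoter of prostate epithelium. The labels give neither strain, age nor castration status, nor a treatment of either group. Whether each sample came from its own animal is not stated, so the spread behind every p-value is that between these samples and may be partly technical.

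Histones package DNA into nucleosomes. Replication-dependent histones are made from clustered gene copies almost only in S phase, and most of their messages end in a stem loop bound by the protein Slbp in place of a poly(A) tail. Variant histones such as H2A.Z, H2A.X, macroH2A and H3.3 are encoded by genes outside that program, mostly have polyadenylated messages, and are placed by their own chaperones. H2ax makes messages of both kinds. Labelling that starts from a poly(A) tail reads stem-loop messages poorly. The labels name only the manufacturer's standard labelling, so levels of replication-dependent genes here may stand for their polyadenylated forms alone.

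All levels are log2(signal + 16), and all differences are tumour minus normal prostate on that scale, which understates the change of dim genes. Replicates are 9 arrays per group. Values at or under the 40th percentile of an array are called dim, and a probe set was tested if 9 or more of the 18 arrays held it above that level. Each test used limma over all 27292 probe sets that passed, with Benjamini-Hochberg adjustment, and a probe set was called at an adjusted p under 0.05. Of the 35 histone probe sets 26 passed, covering 18 genes, and each of them was above the dim range on some arrays of both groups. Where a gene has several probe sets they are numbered.

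The arrays also differed in ways other than the groups. Poly-A controls, added to RNA before labelling, stood at 9.78 to 12.43 on 6 normal and 5 tumour arrays and at 4.81 to 5.26 on the other 3 and 4. Genes of the seminal vesicle, a gland beside the prostate, were high on normal prostate 9 and tumours 3, 5, 6, 7 and 8, with scores of 10.83 to 15.57 (mean log2 level of 6 measured genes of 8 listed) against at most 8.34 on the other arrays. Normal prostate 3 and tumour 4 were high in urothelium genes (13.56 and 13.42, 5 genes of 5), where normal prostate 5 stood at 11.67 and the other arrays at 9.40 or lower. Normal prostate 1 was high in skeletal muscle genes (13.41, 8 of 8). The score of 8 measured prostate epithelium genes of 9 ran from 7.74 on normal prostate 9 to 13.72 in normal prostate and from 6.94 to 10.57 in tumours, and that of 5 adipocyte genes of 7 from 5.94 to 12.52 and from 5.38 to 8.65. Macrophage genes, 7 of 7 measured, ran from 7.78 to 9.87 in normal prostate and from 8.96 to 11.61 in tumours, where 2 of them, C1qa and Aif1, were higher (limma adjusted p = 0.0214 and 0.00386). Among marker genes that passed the filter, 4 of 4 adipocyte, 3 of 6 prostate epithelium and 1 of 4 urothelium genes were called lower in tumours. Of 2 neuroendocrine genes 1 was called higher. Smooth muscle, skeletal muscle and seminal vesicle genes were not called. Over all tested probe sets 19.6% were called. Smooth muscle genes, 6 of 6, ran from 10.09 to 13.84 and from 8.54 to 14.28. The probasin gene itself stood at 4.17 to 6.44 in tumours, and at 4.18 on normal prostate 9 against 8.08 or more on the other normal arrays. The 3′ to 5′ ratio of actin, which grows as RNA degrades, ran from 0.31 to 2.48 in normal prostate and from 0.46 to 2.18 in tumours (log2). The ratio tended to be higher in normal prostate, with a median of 1.71 against 0.95 in tumours. Normal prostate 9 alone gave the low end there, and the other normal arrays stood at 1.22 or more. Tumours 1, 2, 4, 7 and 8 stood at 0.95 or less. No listed marker was at 0 on all arrays.

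Variant histone probe sets were called higher in the tumours more often than probe sets at large. Of the replication-dependent genes read singly only H2ac19 was called, and it was lower. Of 13 variant probe sets 7 were higher and 1 lower (61.5% called), with a median difference of 0.73. The 7 include both probe sets of H2az1. The calls of Macroh2a1 and H3f3b ended in several fits that left out 1 array. Of 13 replication-dependent probe sets 0 were higher and 2 lower (15.4% called), both of H2ac19, with a median difference of -0.22. That share was below the 19.6% of all tested probe sets. At an unadjusted p under 0.05 the replication-dependent counts were 2 higher and 3 lower. The share of all tested probe sets at that threshold was not taken, so these 2 counts have no comparison. Over all tested probe sets 10.1% were called higher and 9.48% lower, 19.6% in all, and their median difference was 0.02. Over the 26 histone probe sets together 7 were higher and 3 lower, with a median difference of 0.39. The groups lay fully apart for H2ax and H1f10, both higher in tumours, and for 0 lower, against 1.23% of all tested probe sets apart upward and 0.619% apart downward. With all 35 probe sets and no filter on low values, 5 variant probe sets of 19 were higher and 1 lower, and 0 replication-dependent probe sets of 16 were higher and 2 lower. Without the filter 6.16% of all probe sets were called higher and 5.32% lower, 11.5% in all.

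In these bulk samples fewer cells of a type and less RNA per cell cannot be told apart, and the part of cell makeup in the histone differences was not tested. Without normal prostate 9 and tumours 3, 5, 6, 7 and 8, which leaves 8 normal and 4 tumour arrays, 11 histone probe sets were higher and 6 lower (15.3% and 17.8% of all probe sets). All 10 probe sets called on all arrays were called in that fit too, with differences over 1.5 times as large for H1f10 (3.07), Macroh2a2 (2.72), H3f3b (1.73) and Macroh2a1 (1.29). The tumours left, 1, 2, 4 and 9, also differ from those dropped in other ways. Tumours 1, 2 and 9 had the highest levels of S phase genes, and tumours 1, 4 and 9 those of neuroendocrine genes, both given below. In this subset these traits and seminal vesicle content cannot be told apart. With tumour 4 and normal prostates 1 and 3 dropped too, a choice made after seeing the data, 12 were higher and 6 lower. That fit had 6 normal and 3 tumour arrays, with normal prostate 5 kept. The share of all probe sets called in it was not taken, so these counts have no comparison. Within the arrays with bright controls 5 histone probe sets were higher and 2 lower (6.67% and 6.65% of all probe sets). Within those with dim controls limma called 0, and 0% of all probe sets. At an unadjusted p under 0.05, 4 histone probe sets were higher and 3 lower there. The share of all probe sets at that looser threshold was not taken. All 10 probe sets called on all arrays kept their sign in both sets. These sets, and the fit without the arrays high in seminal vesicle genes, use parts of the same arrays that picked the 10. The kept signs and calls are therefore not independent support.

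**Figure D1:**
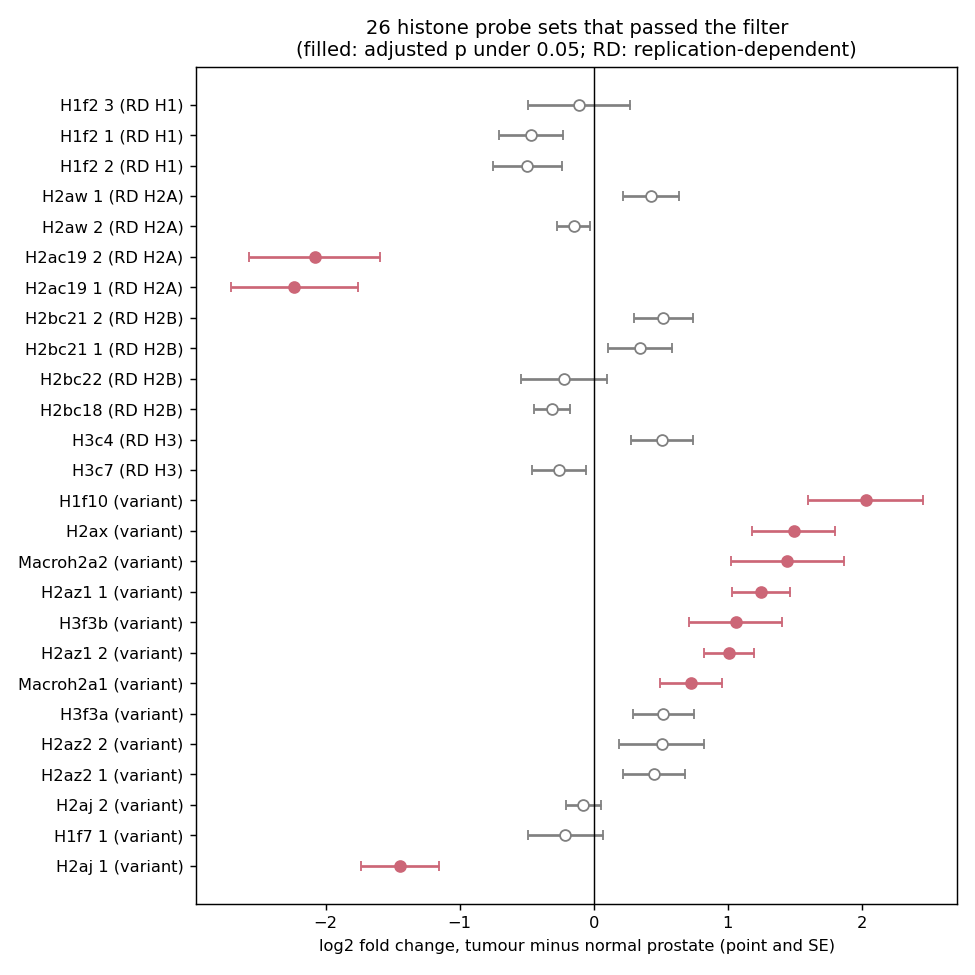
Difference between 9 TRAMP tumours and 9 normal prostates for each of the 26 histone probe sets tested (x axis: log2 fold change; point: estimate; bar: standard error; filled: limma adjusted p under 0.05; RD: replication-dependent). The 7 filled points to the right of 0 are all variant histones, and the 3 to the left are both probe sets of H2ac19 and the first of H2aj.

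The start regions of 4 genes are shown, chosen among the tested histone probe sets that name a single gene. Of these, H1f10 had the largest rise, H2ac19 the largest fall, H2aj the largest fall among variants and H2az1 the smallest p. The sequences are RefSeq's for GRCm38.p6, from 250 bases before to 50 after the annotated start, 5′ to 3′ on the gene's strand. Capitals mark CCAAT or its reverse complement ATTGG, the box known from many histone promoters. The 4 windows lie at chr3:96240325-96240624 on the minus strand for H2ac19, chr6:136807998-136808297 on the plus strand for H2aj, chr3:137864237-137864536 on the plus strand for H2az1 and chr6:87981433-87981732 on the minus strand for H1f10.
H2ac19: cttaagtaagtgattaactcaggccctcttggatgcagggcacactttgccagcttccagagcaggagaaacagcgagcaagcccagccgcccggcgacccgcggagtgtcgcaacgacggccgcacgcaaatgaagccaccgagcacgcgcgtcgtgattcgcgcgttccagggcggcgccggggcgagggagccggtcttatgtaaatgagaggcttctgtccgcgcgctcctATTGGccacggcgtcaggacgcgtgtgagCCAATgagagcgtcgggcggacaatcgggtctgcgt
H2aj: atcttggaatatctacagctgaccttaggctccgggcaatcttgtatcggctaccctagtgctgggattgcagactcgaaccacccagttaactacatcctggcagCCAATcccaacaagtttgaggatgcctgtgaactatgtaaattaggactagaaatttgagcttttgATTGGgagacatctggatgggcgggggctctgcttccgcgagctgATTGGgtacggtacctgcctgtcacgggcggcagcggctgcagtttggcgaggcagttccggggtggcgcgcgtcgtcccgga
H2az1: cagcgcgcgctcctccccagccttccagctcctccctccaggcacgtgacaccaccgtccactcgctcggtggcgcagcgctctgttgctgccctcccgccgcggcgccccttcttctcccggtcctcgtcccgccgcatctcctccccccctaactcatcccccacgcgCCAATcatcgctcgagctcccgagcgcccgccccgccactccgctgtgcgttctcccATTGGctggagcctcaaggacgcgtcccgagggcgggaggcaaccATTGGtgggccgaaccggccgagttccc
H1f10: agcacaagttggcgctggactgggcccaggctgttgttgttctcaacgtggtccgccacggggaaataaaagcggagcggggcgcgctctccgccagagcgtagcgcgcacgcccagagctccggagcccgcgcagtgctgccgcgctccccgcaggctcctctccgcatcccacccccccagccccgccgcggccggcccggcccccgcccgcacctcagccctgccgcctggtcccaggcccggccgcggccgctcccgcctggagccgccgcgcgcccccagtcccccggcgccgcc

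The box occurred 2 times in the H2ac19 window and 3 times in those of H2aj and H2az1, and these letters are not in the H1f10 window. Such windows were given for 20 of the 24 histone genes, and 16 of them held CCAAT on either strand, against 37.4% of 32851 windows of the same length across the genome. The letters TATAAA were in 5 of the 20 against 13.6% of all windows. The octamer known from H2B promoters, ATTTGCAT, was in 3 against 1.74%. The letters GCGGGAA, a form of the E2F motif, were in 0 of the 20 and in 4.6% of all windows. H2ac19, which was lower in tumours, and H2az1, which was higher, both held CCAAT. All motifs were searched on both strands. A match describes letters only and is not a bound site.

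Among replication-dependent genes H2ac19 (older name Hist2h2aa2), a gene for histone H2A on chromosome 3, was lower in the tumours. Its first probe set measured 10.86, 12.16 and 13.21 at its lowest, median and highest in normal prostate and 8.19, 9.64 and 12.13 in the tumours. The groups overlapped, with 6 of 9 tumours below the lowest normal array. The mean fell from 12.10 ± 0.64 (SD, n = 9) to 9.87 ± 1.40 (SD, n = 9), a difference of -2.23 ± 0.47 (SE; limma adjusted p = 0.0034). The second probe set ran from 10.15 to 12.75 with a median of 11.77 in normal prostate, and from 8.05 to 11.90 with a median of 9.44 in tumours (difference -2.08 ± 0.49 SE, limma adjusted p = 0.00646). Both probe sets ordered the arrays alike at the extremes, with normal prostate 9 highest of all and tumour 9 lowest.

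The tumours with most H2ac19 were tumours 3, 5 and 7, at 12.13, 11.59 and 11.05 on the first probe set. Those 3 arrays, with normal prostate 9, were also the 4 highest in seminal vesicle genes, with scores of 15.08, 15.57, 14.98 and 12.09. Tumours 6 and 8, also high in those genes (10.83 and 10.85), had less H2ac19 on that probe set than tumours 1 and 4 (9.66 and 9.64). Tumours 3, 5 and 7 were also the 3 tumours with the lowest levels of S phase genes, given below (10.11, 9.80 and 9.64). The part of seminal vesicle content or of S phase in the H2ac19 difference was not tested. Without normal prostate 9 and tumours 3, 5, 6, 7 and 8 the difference of the first probe set was -2.85 (limma adjusted p = 7.57e-05). Within the 6 normal and 5 tumour arrays that had bright labelling controls it was -1.56 (limma adjusted p = 0.0775), and within the other 3 normal and 4 tumour arrays -3.18 (0.278), so neither set of arrays alone gave the call.

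The other replication-dependent probe sets did not pass the test with all arrays. H1f2 (Hist1h1c), a linker histone that binds DNA between nucleosomes, was above the dim range on every array with 2 of its 3 probe sets. Its probe set H1f2 1 measured 11.95, 12.56 and 12.61 in normal prostate and 11.03, 11.76 and 13.22 in tumours at the lowest, median and highest, a difference of -0.47 ± 0.24 SE (limma adjusted p = 0.175). Of the tumours, 5 lay below the lowest normal array, and tumour 5 above the highest. H1f2 2 gave -0.50 ± 0.26 SE (0.181) and the dim H1f2 3 gave -0.11 ± 0.38 SE (0.87). Both H1f2 1 and H1f2 2 were called lower when normal prostate 9 and tumours 3, 5, 6, 7 and 8 were left out, at -0.85 and -1.02 (limma adjusted p = 0.0121 and 0.00952). Leaving out tumour 5 alone also made H1f2 1 pass, with a smallest adjusted p of 0.0333 over the fits without 1 array.

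The H2B genes H2bc21 (Hist2h2be) and H2bc18 (Hist2h2bb), both on chromosome 3, had differences of opposite sign that did not pass. H2bc21 2 measured 8.26 ± 0.45 in normal prostate and 8.78 ± 0.49 in the tumours (limma adjusted p = 0.102), and H2bc21 1 measured 9.73 ± 0.23 and 10.07 ± 0.71 (0.328). Tumour 2 was the highest of all arrays on both, at 9.63 and 11.24. H2bc18 measured 8.04 ± 0.31 and 7.73 ± 0.18 (limma adjusted p = 0.115). Its group ranges overlapped, since all 9 tumours, 7.51 to 8.003, lay inside the span of the normal arrays, 7.40 to 8.46. H2bc22 (Hist1h2bp) differed by -0.22 ± 0.32 SE (0.668). H2bc21 2 passed without normal prostate 9 or without tumour 4, and H2bc18 passed without normal prostate 9 (smallest limma adjusted p = 0.0321 and 0.0253). Without normal prostate 9 and tumours 3, 5, 6, 7 and 8 the differences were 0.84 for H2bc21 1 (limma adjusted p = 0.0356), 0.74 for H2bc21 2 (0.0567) and -0.49 for H2bc18 (0.0219). With normal prostates 1 and 3 and tumour 4 out too they were 1.22 and 1.10 for H2bc21 1 and 2 (0.00201 and 0.00208). H2bc18 also passed with quantile normalization (-0.40, 0.04), with centring on housekeeping genes (-0.49, 0.0342) and within the arrays with bright controls (-0.50, 0.0433).

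The remaining H2A and H3 genes of this class did not pass. H2aw (Hist3h2a) had 2 probe sets with differences of opposite sign, 0.43 ± 0.21 SE and -0.15 ± 0.13 SE (limma adjusted p = 0.152 and 0.423). H3c4 (Hist1h3d), a gene for histone H3, was 7.35 ± 0.50 in normal prostate and 7.86 ± 0.50 in tumours (0.128), and over the fits without 1 array passed only in that without tumour 4 (adjusted p = 0.048). H3c7 (Hist1h3f) was 7.77 ± 0.29 and 7.51 ± 0.53 (0.381). Both H3 genes stood near the dim range, with the 40th percentile between 6.91 and 7.41 over the arrays.

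H2ax (H2afx), whose protein is phosphorylated around DNA breaks, was higher in the tumours. Its lowest, median and highest levels were 8.39, 8.99 and 9.37 in normal prostate and 9.38, 10.36 and 11.95 in tumours. Every tumour lay above every normal array, though tumour 7, the lowest, stood at 9.375 against 9.372 in normal prostate 7, the highest. The mean rose from 9.01 ± 0.30 to 10.50 ± 0.93, by 1.49 ± 0.31 SE (limma adjusted p = 0.00274). Tumours 2, 9 and 1 were highest, at 11.95, 11.75 and 11.23.

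H1f10 (H1fx), a linker histone made outside S phase, was higher by the largest amount among the tested histone probe sets that name a single gene. Its lowest, median and highest levels were 5.62, 7.94 and 8.47 in normal prostate and 8.60, 9.13 and 11.37 in tumours. The groups lay apart, with tumours 9, 1 and 2 highest at 11.37, 10.72 and 10.72. The difference was 2.03 ± 0.43 SE (limma adjusted p = 0.0032). It was 1.83 with dim values raised to the 40th percentile of their array, since normal arrays were dim in 2 cases.

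H2az1, the main gene for H2A.Z, which sits at promoters and is exchanged into nucleosomes by the Srcap and Ep400 complexes, was bright on every array and higher in the tumours. H2az1 1 measured 12.23, 12.82 and 13.83 in normal prostate and 13.43, 14.30 and 14.83 in tumours. Normal prostate 9 was the highest normal array, and 6 of 9 tumours lay above it. The difference was 1.25 ± 0.22 SE (limma adjusted p = 0.000839). H2az1 2 rose from 12.79 ± 0.38 to 13.80 ± 0.41 (limma adjusted p = 0.0014), with 7 of 9 tumours above the highest normal array.

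H2az2 (H2afv), the second H2A.Z gene, did not pass on either probe set. H2az2 1 was 12.00 ± 0.27 in normal prostate against 12.45 ± 0.65 in tumours (limma adjusted p = 0.173), and H2az2 2 was 8.35 ± 0.31 and 8.85 ± 0.96 (0.274). Tumours 9 and 1 were the 2 highest arrays on both probe sets, at 13.49 and 13.22 on the first and 10.58 and 10.10 on the second. Without normal prostate 9 and tumours 3, 5, 6, 7 and 8 the differences were 0.93 and 1.28 (limma adjusted p = 0.00817 and 0.00928).

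The macroH2A genes encode H2A variants with a large extra domain that are enriched in silent chromatin. Macroh2a1 (H2afy) ran from 10.81 to 11.62 with a median of 11.11 in normal prostate, and from 10.93 to 12.87 with a median of 11.90 in tumours. Tumours lay above the highest normal array in 6 of 9 cases, and the difference was 0.73 ± 0.23 SE (limma adjusted p = 0.033). Macroh2a2 (H2afy2) ran from 6.35 to 7.78 with a median of 7.65 in normal prostate, and from 7.22 to 10.87 with a median of 8.38 in tumours. Tumour 5 alone lay below the highest normal array, and the difference was 1.45 ± 0.42 SE (limma adjusted p = 0.0222), or 1.36 with dim values raised.

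Macroh2a2 was highest in tumours 9, 1, 4 and 2, at 10.87, 10.61, 9.58 and 9.55. Tumours 9, 1 and 4 were also the highest arrays in neuroendocrine genes, with scores of 11.33, 10.98 and 9.58 over 7 measured genes of 8, while tumour 2 stood at 6.20 and the normal arrays ran from 6.10 to 6.80. Tumours 9 and 1 were also among the 3 highest for H2ax and H1f10 and the lowest for H2aj 1, and the part of neuroendocrine cells in these differences was not tested. With the actin ratio as a covariate, Macroh2a2 no longer passed (1.26, limma adjusted p = 0.107). Macroh2a1 did not pass with that covariate either (0.54, 0.179), and leaving out any 1 of 8 arrays ended its call (normal prostates 1, 2, 4, 5 and 6 and tumours 1, 2 and 9; largest adjusted p = 0.0622). Its call also ended with no filter (0.0502), either centring (0.0523 and 0.106) and within the arrays with bright controls (0.156).

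H3f3a and H3f3b both encode H3.3, the H3 variant placed outside S phase. The single-gene probe set of H3f3b was dim on 6 normal and 2 tumour arrays and rose from 6.79 ± 0.67 to 7.85 ± 0.89, by 1.06 ± 0.35 SE (limma adjusted p = 0.0393), or 0.72 with dim values raised. Its call ended without any 1 of 10 arrays (normal prostates 1, 2, 4, 5, 6 and 9 and tumours 1, 2, 4 and 9; largest adjusted p = 0.0763). H3f3a was 8.39 ± 0.35 and 8.91 ± 0.60 (limma adjusted p = 0.114) and passed when tumour 5 was left out (smallest adjusted p = 0.0381). It also passed without normal prostate 9 and tumours 3, 5, 6, 7 and 8 (0.89, 0.022), and with normal prostates 1 and 3 and tumour 4 out too (1.04, 0.0343). The H3f3b call also ended with no filter, either centring, quantile normalization, the actin ratio as a covariate or arrays with bright controls alone (0.0559 to 0.0992). Tumour 9 was the highest array for both genes, at 9.53 for H3f3b and 10.01 for H3f3a.

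H2aj (H2afj), an H2A variant described in senescent and glandular cells, was the only variant gene lower in the tumours by this test. Its probe set H2aj 1 measured 11.98, 12.74 and 12.94 in normal prostate and 9.74, 11.34 and 12.30 in tumours at the lowest, median and highest. Tumours lay below the lowest normal array in 7 of 9 cases, with tumours 9 and 1 lowest at 9.74 and 10.01. The mean fell from 12.66 ± 0.30 to 11.21 ± 0.87, by 1.44 ± 0.29 SE on the log2 scale (limma adjusted p = 0.00243). H2aj 2 did not pass, at 8.40 ± 0.15 and 8.32 ± 0.29 (0.714), and H2aj 3 was dim on 8 normal and 8 tumour arrays, so the fall rests on 1 probe set. H1f7 1, of a linker histone of spermatids, was dim on 4 normal and 5 tumour arrays and differed by -0.21 ± 0.28 SE (0.631).

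**Figure D2:**
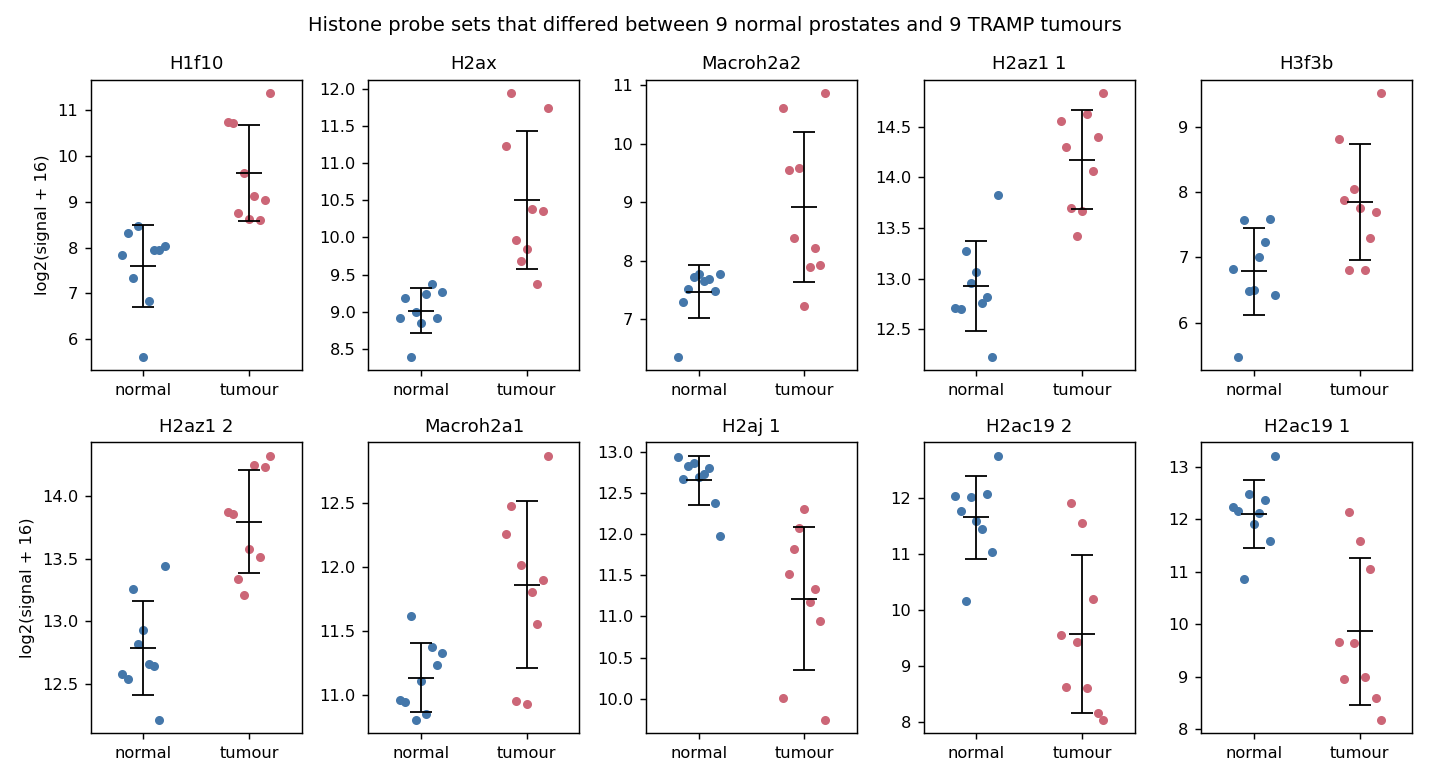
Level of the 10 called histone probe sets on each of the 18 arrays (y axis: log2(signal + 16), with its own range in each panel; points: arrays, in replicate order within a group; bars: mean and SD, n = 9 per group). H2ax and H1f10 show no overlap between groups, while for H2ac19 the highest tumours, at up to 12.13 on the first probe set, lie among the normal arrays.

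The 9 probe sets that did not pass the filter belong to 8 genes, 6 of which have no other probe set here, and 5 were dim on all 18 arrays. Their mean levels ran from 4.62 to 6.69 in normal prostate and from 4.49 to 7.55 in tumours. The highest single value was 9.31 in tumour 9 for Macroh2a3 1, of the third macroH2A gene, whose means were 6.48 ± 0.67 and 7.55 ± 1.13 (limma adjusted p = 0.099 without the filter). Macroh2a3 2 reached 7.57 in tumour 5 and H3c11, a replication-dependent H3 gene, 7.44 in tumour 2. The others were H2aj 3, H1f4, H1f6, H1f7 2, H1f8, the linker histone of oocytes, and H2al2a, a histone of the testis.

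Many histone genes are near-identical copies, and 27 further probe sets name several genes, of which 20 passed the filter. Of the 27, 24 name several histone genes and 3 name 1 histone gene with another locus. These were looked at after the values of the single-gene probe sets were known, and a signal there cannot be assigned to one gene. Of the 20, 7 were higher and 3 lower, with a median difference of 0.13, where 10.1% and 9.48% of all tested probe sets were. A probe set of 10 replication-dependent H2A genes rose from 9.67 ± 0.55 to 13.16 ± 1.005, by 3.49 ± 0.36 SE (limma adjusted p = 2.27e-05). It names H2ac4, H2ac6, H2ac7, H2ac8, H2ac11, H2ac12, H2ac13, H2ac22, H2ac23 and H2ac24, and neither H2ac18 nor H2ac19. All 9 tumours, 11.47 to 14.52, lay above all normal arrays, 9.06 to 10.55, with tumour 9 highest and tumour 7 lowest.

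Of the other tested shared probe sets of replication-dependent genes, some were lower, 0 were higher and the rest did not pass. A probe set of H2ac19 and its twin copy H2ac18 fell by 1.31 ± 0.24 SE on the log2 scale (limma adjusted p = 0.00103). It was dim on 7 tumours, and the difference was -0.82 with dim values raised. A pair of probe sets of the same 8 H3 genes, including H3c4 and H3c7, fell by 1.72 ± 0.39 SE and 1.61 ± 0.33 SE (0.00527 and 0.00279), and another, of 12 H3 genes, differed by 0.998 ± 0.42 SE (0.101). The 3 H2B probe sets ran from -0.41 to -0.13 and the 3 H4 probe sets from -0.32 to 0.21, and 0 of these 6 passed. Below the filter lay 7 more, of which limma without the filter called 1 higher and 1 lower (6.16% and 5.32% of all probe sets). The probe set of H2bu1-ps and H2bu2, which carry H2B names, averaged 5.64 ± 1.01 in normal prostate, dim on each of the 9, and 8.07 ± 1.70 in tumours (0.0136), a rise of at least 1.93-fold against dim values raised to the 40th percentile. An H4 probe set of 13 genes, dim on 4 normal and 8 tumour arrays, differed by -1.48 ± 0.36 SE (0.0123), or -0.38 with dim values raised. The probe set of H2aw with Trim17 differed by -0.06 ± 0.15 SE (0.823).

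Shared probe sets of variants were higher or did not pass. Both of H2az1 with the locus Gm8203 were higher, by 1.47 ± 0.24 SE and 0.84 ± 0.20 SE (limma adjusted p = 0.000448 and 0.00706). The probe set shared by Macroh2a2 and Macroh2a3 rose from 8.19 ± 0.34 to 9.72 ± 1.03 (0.00439). Of 5 probe sets of H3.3 and its related copies 3 were higher, and the 5 differences ran from -0.01 to 0.72.

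**Figure D3:**
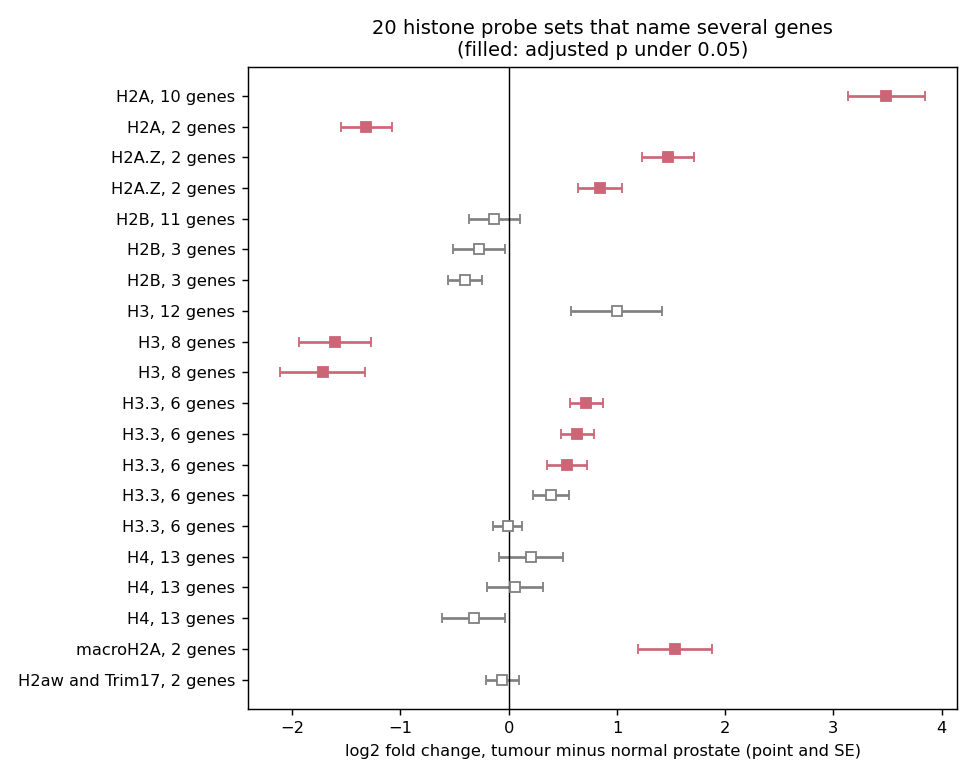
Difference between 9 tumours and 9 normal prostates for the 20 tested probe sets that name several genes, at least 1 of them a histone gene, by family and number of genes (x axis: log2 fold change; square: estimate; bar: standard error; filled: limma adjusted p under 0.05). The H2A set of 10 genes stands at 3.49, while the H2A set of 2 genes and both H3 sets of 8 genes lie left of 0.

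Genes that make and process the stem-loop messages were described from a list of 15, of which 13 were measured: 5 were higher and 0 lower, with a median difference of 0.35, beside 10.1% higher and 9.48% lower of all tested probe sets. Slbp, which binds the stem loop, ran from 9.88 to 10.25 in normal prostate and from 10.41 to 13.09 in tumours. The groups did not overlap, and the difference was 1.63 ± 0.29 SE (limma adjusted p = 0.00106). Casp8ap2, a factor needed for cleavage of these messages, differed by 1.32 ± 0.28 SE (0.00337), and Eri1, an exonuclease that trims the stem loop, by 1.02 ± 0.26 SE (0.00957). Npat, the coactivator of the histone clusters, differed by 0.69 ± 0.23 SE (0.0437), and Cpsf2, a subunit of the cleavage complex, by 0.59 ± 0.19 SE (0.0373). The calls of Npat and Cpsf2 ended with no filter, either centring, the actin ratio as a covariate or arrays with bright controls alone (0.0581 to 0.168).

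Chaperones and enzymes of newly made histones were higher in 8 and lower in 1 of 14 measured genes of 16 listed, with a median difference of 0.60, against the same 10.1% and 9.48% over all. Chaf1b, a subunit of the chromatin assembly factor that works at replication forks, lay apart between the groups, at 6.13 to 7.53 in normal prostate and 7.91 to 10.66 in tumours (2.15 ± 0.38 SE, limma adjusted p = 0.000849). Asf1b, which hands H3 and H4 to that factor, differed by 2.10 ± 0.38 SE (0.00107), the H3 and H4 reserve chaperone Nasp by 1.85 ± 0.38 SE (0.00249) and Hat1, which acetylates new H4, by 1.44 ± 0.22 SE (0.000268). The gene that was lower, Spty2d1, differed by -0.70 ± 0.19 SE (0.016). Chaf1a was not analysed here.

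Chaperones of the variants were higher in 3 and lower in 0 of 16 measured genes of 18 listed, with a median difference of 0.26. The share called, 18.8%, was close to the 19.6% of all tested probe sets. The 3 were Mis18a at 1.65 ± 0.43 SE (limma adjusted p = 0.0118) and Oip5 at 1.09 ± 0.23 SE (0.0036), both needed to load the centromeric H3 variant, and Ruvbl1, an ATPase of the H2A.Z exchange complexes, at 0.71 ± 0.21 SE (0.0232). With the actin ratio as a covariate the calls of Mis18a and Ruvbl1 ended (0.0504 and 0.122), and Ruvbl1 also did not pass with housekeeping centring (0.0957) or in the bright set (0.0674). Anp32e, which removes H2A.Z, was 10.55 ± 0.37 and 11.44 ± 1.04 (0.0777). It passed without normal prostate 9 and tumours 3, 5, 6, 7 and 8 (1.94, limma adjusted p = 0.000259). Cenpa, the centromeric H3 variant itself and outside the symbols used here, ran from 6.63 to 8.28 in normal prostate and from 8.90 to 13.31 in tumours (3.63 ± 0.51 SE, limma adjusted p = 0.000157).

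The level of S phase genes on each array was taken as the mean log2 level of 17 measured genes of DNA replication. It ran from 8.48 to 8.81 on the normal arrays. In tumours it was 9.64 in tumour 7, 9.80 in tumour 5, 10.11 in tumour 3 and 10.25 in tumour 4, and then 11.20 in tumour 8, 11.21 in tumour 6, 11.69 in tumours 1 and 2 and 12.15 in tumour 9. The tumours thus formed a lower set of 4 and a higher set of 5, with a gap of 37.9% of their range, so no correlation across tumours is given. The lowest tumour for H2ax, H1f10 and the probe set of 10 H2A genes was tumour 7, which also had the lowest S phase level. Tumour 9, with the highest, was highest for H1f10, H2az1 and that H2A probe set and lowest for H2aj 1 and H2ac19. Other extremes fell on other tumours. H2ax was highest in tumour 2 and H2az1 lowest in tumour 4, while H2aj 1 was highest in tumour 5 and H2ac19 in tumour 3. The part of S phase in these differences was not tested.

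**Figure D4:**
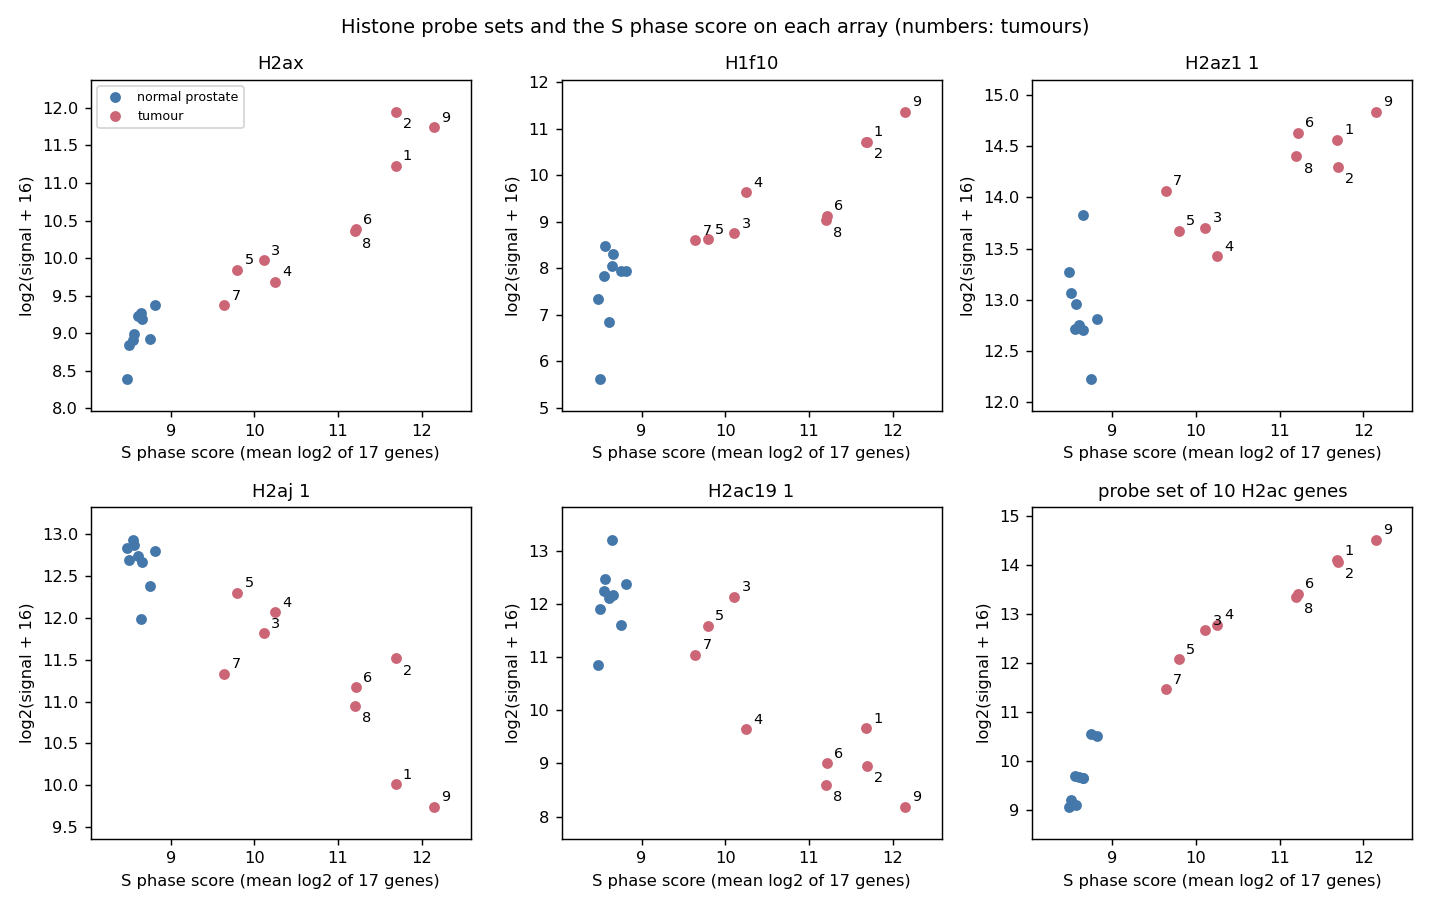
Level of 5 histone probe sets and of the probe set of 10 H2A genes (y axes: log2(signal + 16)) against the S phase score of the same array (x axes: mean log2 level of 17 genes), for 9 normal prostates and 9 tumours, the latter numbered. Tumours 3, 4, 5 and 7 form the lower set and tumours 1, 2, 6, 8 and 9 the higher, and normal prostates cluster between 8.48 and 8.81.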

How the data were processed

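Affymetrix arrays, 1 per sample, measured biotin-labelled total RNA, extracted with Trizol, of 9 normal prostates and 9 TRAMP tumours, per the labels. The deposited intensities are MAS5 signals that the authors computed, per the submitters' processing notes, which give no version. MAS5 scales each array by 1 factor, and the 2% trimmed mean was 500 on every array. Dim probe sets stay noisy in such values.

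Sample titles gave the groups and replicate numbers. Gene names came from the platform annotation. Older histone symbols came from RefSeq synonyms of GRCm38.p6, matched by Entrez identifier for all 35 members. The members and gene lists were chosen with earlier results of these data known. All 26 tested members are given, with up to 4 genes per processing or chaperone list by absolute t, plus Slbp, Npat, Casp8ap2, Cenpa, Chaf1a, Chaf1b and Asf1b where measured.

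The intensities were turned into log2(signal + 16) with no further normalization and tested, two-sided and with group as the only term, by lmFit and eBayes of limma 3.58.1 (R 4.3.3), after the filter had kept 27292 probe sets (60.6%). The code was tested on simulated data. Alternatives were other pseudocounts, filters, normalizations, blocks and covariates, and subsets of arrays; the number of arrays limits the precision. Figures were drawn with matplotlib 3.10.9.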

Additional observations from a re-analysis of the deposited data

Results flagged for a closer look

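Single arrays stood apart from the other 8 of their group, by a gap above Dixon's critical share of the range, in 5 of 80 groups checked, from 40 probe sets. About 5% of groups meet this by chance. Normal prostate 3 was lowest for H1f2 2, at 11.60 with the nearest normal array at 12.28. Tumour 2 was highest for H2aw 1, at 10.69 with the nearest tumour at 9.83. Tumour 8 was lowest for H3c7, at 6.28 with the nearest at 7.40. Normal prostate 1 was lowest for Macroh2a2, at 6.35 with the nearest at 7.29. Normal prostate 7 was lowest for Mis18a, at 7.31 with the nearest at 8.17.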

How the results depend on the processing

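The counts of 7 histone probe sets higher and 3 lower were 7 and 3 with pseudocounts of 1 or 64, an intensity trend, or the set of labelling controls as a block. They stayed within 1.5 times with no filter or one at the 60th percentile (5 and 3), quantile normalization (6 and 4), centring on the 75th percentile (5 and 3) and centring on housekeeping genes (5 and 4), which moved the median of all probe sets to -0.16. Besides the main fit, the share of all probe sets called was taken for 3 kinds of setting. These were no filter, the arrays with bright or dim controls, and the arrays low in seminal vesicle genes. Counts under the other settings of this section have no such comparison. The replicate number as a block gave 5 and 3, but the shared numbers did not pair the samples (correlation above 0.1 in 1 of 9 pairs). It ended the calls of Macroh2a1, H3f3b and Npat (limma adjusted p = 0.0653, 0.0847 and 0.0713). With the actin ratio as a covariate 4 were higher, all 4 of them variants. Replication-dependent probe sets lower numbered 1 on arrays with bright controls, 1 with each gene represented once, and 1 without probe sets prone to cross-hybridise. Of the called probe sets that last setting leaves out H2ac19 1, H2az1 2 and Macroh2a2, which has no other tested probe set of its own. On arrays with dim controls all counts were 0 in limma, for members, replication-dependent and variant probe sets. At an unadjusted p under 0.05, 4 were higher and 3 lower, with no share of all probe sets taken at that threshold.

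Without normal prostate 9 and tumours 3, 5, 6, 7 and 8, 11 were higher and 6 lower, of which 1 and 5 were replication-dependent. Without normal prostates 1 and 3 and tumour 4 as well, an alternative chosen after seeing the data, the counts were 12 and 6, with 2 and 5 replication-dependent. The share of all probe sets called in that fit was not taken. Leaving out each array in turn gave 5 to 8 higher and 3 to 4 lower, 0 to 2 replication-dependent higher (1 without normal prostate 9, 2 without tumour 4) and 2 to 3 lower, and 5 to 8 variants higher and 1 lower. The sign of uncalled probe sets turned to 0.19 for H1f2 3, 0.025 for H3c7 and 0.011 for H2aj 2 on arrays with bright controls. It turned to 0.00055 for H2aw 2 and 0.017 for H2bc18 on arrays with dim controls, to 0.031 for H3c7 without the arrays high in seminal vesicle genes, and to 0.42 for H2bc22 and 0.15 for H3c7 in the smallest set. The cause was not tested. The relation of histone genes to the S phase level within tumours, with its alternatives, was not run because the tumours formed separate sets.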
